A study of Mus musculus with 6 samples.

Results

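Peaks of open chromatin at bidirectional coding promoters were collected from 2 ATAC-seq peak lists of mouse embryonic stem cells, 1 for the parental line HATX WT and 1 for Spen KO clone 3. A peak was a member if its midpoint lay within 1 kb of the transcription start site (TSS) of a protein-coding gene on the plus strand and within 1 kb of that of a different protein-coding gene on the minus strand, in the GENCODE annotation of the mm9 build. This gave 933 of 21698 autosomal peaks in WT (4.30%) and 849 of 22457 in Spen KO clone 3 (3.78%), out of 22753 and 23722 peaks in the whole lists. The peaks they were compared with, 8199 in WT and 7491 in Spen KO clone 3, lay within 1 kb of coding TSSs of 1 strand only, so members made up 10.2% of the coding promoter peaks in both lists. The HATX cells are a haploid line with a doxycycline-inducible Xist transgene, and the clone derives from them by deletion of Spen, which encodes an RNA-binding repressor that Xist needs for silencing. Each line has an uninduced and an induced sample record (2 ug/mL doxycycline, 48 hr) among the 6 of the study. The lists name the line only. The paper describes the replicates behind them as technical, and they had been combined. Whether the 2 replicate values per peak come from the uninduced and induced samples is not stated, so replicates may differ in doxycycline. With 1 list per line and 1 clone for the knockout here, no test between lines was possible and no p-value is given. Spen KO clone 2 was not analysed here. Of 7 stem cell markers, a peak within 1 kb of a TSS was listed for Sox2 and Zfp42 in WT and for Klf4 and Zfp42 in Spen KO clone 3, and for none of Pou5f1, Nanog, Esrrb and Tfcp2l1 in either list. Intervals below are 95% intervals (Wilson for shares, Newcombe for differences of shares, binomial for medians) and cover counting error only, since peaks of 1 list are not replicates.

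At a bidirectional promoter, genes on opposite strands start close to each other, most often head to head, and transcription runs away from the stretch between them in both directions. In mammals such pairs are common among housekeeping genes, including DNA repair, mitochondrial and translation genes, and they typically lie in CpG islands and lack a TATA box. ATAC-seq reads this arrangement as DNA that is open to a transposase, with no strand, so 1 peak can serve both genes.

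The stretches between the TSSs of 5 pairs show the range of these promoters. Each is printed 5′ to 3′ on the plus strand of mm9, from the base after the TSS of the minus-strand gene (named second) to the base before that of the plus-strand gene (named first), and holds no annotated exon. Capitals mark matches, on either strand, to the 9 motifs described with the sequence results. AI597468/Fhl4 (chr10:84565241-84565371) and Sf3a1/Ccdc157 (chr11:4060297-4060352) ranked far lower in Spen KO clone 3 than in WT, Fto/Rpgrip1l (chr8:93837162-93837430) and Wdpcp/Mdh1 (chr11:21472197-21472237) were among the 5 pairs of highest rank, and 9030418K01Rik/Ppp1r3d (chr2:178149178-178149228) had among the lowest.
AI597468/Fhl4: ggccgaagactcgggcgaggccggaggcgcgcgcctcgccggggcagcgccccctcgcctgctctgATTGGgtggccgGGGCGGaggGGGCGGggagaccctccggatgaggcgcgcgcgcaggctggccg
Sf3a1/Ccdc157: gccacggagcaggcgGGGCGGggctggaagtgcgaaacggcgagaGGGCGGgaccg
Fto/Rpgrip1l: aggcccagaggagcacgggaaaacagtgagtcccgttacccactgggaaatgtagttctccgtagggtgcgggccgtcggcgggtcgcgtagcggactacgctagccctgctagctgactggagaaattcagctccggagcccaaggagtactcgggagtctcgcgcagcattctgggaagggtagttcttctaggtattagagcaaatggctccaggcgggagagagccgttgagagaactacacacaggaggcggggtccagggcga
Wdpcp/Mdh1: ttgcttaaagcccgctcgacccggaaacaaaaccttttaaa
9030418K01Rik/Ppp1r3d: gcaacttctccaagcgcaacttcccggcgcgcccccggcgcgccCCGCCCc
The AI597468/Fhl4 stretch held 1 CCAAT box and 2 GC boxes in 131 bp at 80.9% GC, and the Sf3a1/Ccdc157 stretch 2 GC boxes in 56 bp at 76.8% GC. None of the 9 motifs matched between the TSSs of Fto/Rpgrip1l (269 bp, 59.9% GC) or Wdpcp/Mdh1 (41 bp, 43.9% GC).

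Members were mostly peaks over both starts of a head-to-head pair. The TSSs nearest to the midpoint were divergent, with the minus-strand TSS upstream of the plus-strand TSS, at 768 WT members (82.3%) and 691 Spen KO clone 3 members (81.4%), and overlapping at the other 165 and 158. The median distance between divergent TSSs was 168 bp in both lists. The peak covered both TSSs at 765 WT members (82.0%) and 680 Spen KO clone 3 members (80.1%), 1 of them at 144 and 148, and neither at 24 and 21. The midpoint of a member lay a median of 77.5 bp in WT and 77.0 bp in Spen KO clone 3 from the centre between the 2 TSSs. Seen from 1 gene, the midpoint lay upstream of the TSS at 55.8% of 1-strand peaks in WT and 57.2% in Spen KO clone 3. Its signed median position was 15.5 bp upstream in WT and 20.5 bp upstream in Spen KO clone 3. Upstream and downstream positions cancel in this median, unlike in the distance given for members.

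The 933 WT members fell on 909 gene pairs and the 849 Spen KO clone 3 members on 827, of which 765 pairs were in both lists, 144 in WT only and 62 in Spen KO clone 3 only. A pair held 2 peaks 24 times in WT and 22 times in Spen KO clone 3. Son/Gart, which pairs a splicing cofactor with an enzyme of purine synthesis, was such a pair in both lists, with peaks at chr16:91647045-91647519 and chr16:91647824-91648285 in WT and at chr16:91647053-91647496 and chr16:91647803-91648302 in Spen KO clone 3, each over 1 TSS of the nearest pair. Counted from the annotation, 1244 autosomal pairs had coding TSSs of opposite strand within 1 kb of each other, and 907 of them had a member peak in WT (72.9%, interval 70.4 to 75.3) against 823 in Spen KO clone 3 (66.2%, 63.5 to 68.7). A peak was listed in both for 765 pairs and in neither for 279. The share was highest for divergent pairs over 100 and up to 300 bp apart, at 80.9% in WT and 75.7% in Spen KO clone 3, and lowest for overlapping pairs, at 56.5% and 52.4%. Gene by gene, 75.7% of the 2459 genes in an opposite-strand pair had a peak within 1 kb of a TSS in WT and 68.9% in Spen KO clone 3, beside 40.7% and 37.1% of the 18951 other coding genes. A paired gene can be credited with a peak at its partner's start. The part of this in the difference was not tested.

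Bidirectional promoter peaks were wider than promoter peaks of 1 strand. Their median width was 716 bp in WT (interval 696 to 732) against 630 bp (625 to 635), and 668 bp in Spen KO clone 3 (649 to 685) against 601 bp (594 to 607). The differences were 86 bp and 67 bp, and the intervals of members and 1-strand peaks did not meet in either list. With 1-strand peaks weighted to the score deciles of members, they were 69 bp and 51 bp. Member widths ran from 240 to 1701 bp in WT and from 246 to 1624 bp in Spen KO clone 3, within the range of 1-strand peaks, whose widest were 4577 and 4572 bp. The median over all autosomal peaks was 544 bp in WT and 523 bp in Spen KO clone 3. Ankrd16/Fbxo18, whose minus-strand gene encodes an F-box DNA helicase, had the widest member in both lists, 1701 bp in WT (chr2:11698724-11700424) and 1624 bp in Spen KO clone 3 (chr2:11698777-11700400). The next in WT were Tsen34/Mboat7 with 1684 bp, a tRNA splicing endonuclease subunit beside an acyltransferase, and Thap8/Wdr62 with 1569 bp. In Spen KO clone 3 they were 1700018A14Rik/Trim36 with 1566 bp and Sdccag8/Cep170, a pair of centrosomal protein genes, with 1543 bp.

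Members also ranked higher by score. The 2 replicate values deposited per peak carry no named scale, so their mean, the score, was used only as a percentile among the autosomal peaks of a list. The median percentile of members was 70.3 in WT (interval 67.1 to 72.6) against 60.4 (59.3 to 61.3) at 1-strand peaks, and 66.6 in Spen KO clone 3 (63.1 to 69.2) against 57.5 (56.0 to 58.5). Taken from 1 replicate at a time, it was 68.0 and 69.0 in WT and 66.0 and 64.8 in Spen KO clone 3. The top score quartile held 43.3% of WT members and 39.3% of Spen KO clone 3 members, beside 33.3% and 31.8% of 1-strand peaks, and the bottom quartile held 12.0% and 14.6% beside 18.2% and 21.6%. The replicates ranked single members with a median gap of 7.82 percentile points in WT and 8.20 in Spen KO clone 3. Weighting 1-strand peaks to the width deciles of members moved the difference from 9.95 to 6.13 points in WT and from 9.08 to 4.52 in Spen KO clone 3.

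**Figure D1:**
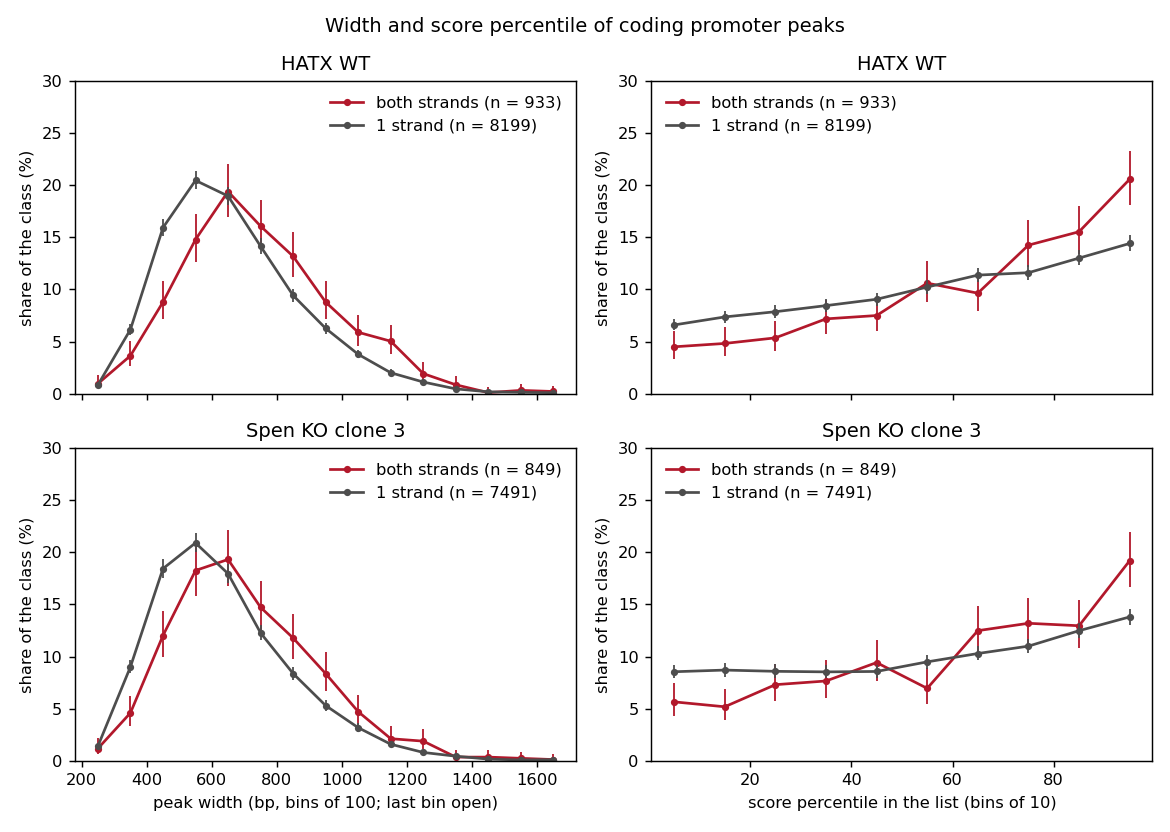
Share of bidirectional (red) and 1-strand (grey) coding promoter peaks, in percent of their class, by peak width in bins of 100 bp (left) and by score percentile in bins of 10 (right), for each list, with bars for 95% Wilson intervals. The red curves lie to the right of the grey ones in width (medians 716 against 630 bp in WT, 668 against 601 bp in Spen KO clone 3) and above them in the top score bin.

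Width and rank also varied among the members with the distance between the TSSs. Divergent pairs 1 to 100 bp apart (213 members in WT) had a median percentile of 62.0 in WT and 57.5 in Spen KO clone 3, pairs over 100 and up to 300 bp apart (345 in WT) 74.7 and 74.0, pairs over 300 and up to 1000 bp apart 73.7 and 71.7, and overlapping pairs 63.1 and 61.0. The interval of the over 100 to 300 bp group, 71.0 to 78.0 in WT and 69.5 to 76.3 in Spen KO clone 3, did not meet that of overlapping pairs in either list, and met that of the closest pairs in WT only. Median width was 657, 728 and 777 bp in WT from the closest to the over 300 to 1000 bp group, and 617, 679 and 705 bp in Spen KO clone 3. The width intervals of the 1 to 100 and over 100 to 300 bp groups met in Spen KO clone 3 and not in WT.

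The highest-ranking members were chosen by the mean percentile of both lists, so they lie near the top of both by that choice. At Fto/Rpgrip1l (WT peak chr8:93836909-93837668), an RNA demethylase beside a protein of the ciliary transition zone, the 2 replicates lay at percentiles 99.8 and 99.5 in WT and at 99.4 and 99.3 in Spen KO clone 3. Dusp10/1700056E22Rik (a MAP kinase phosphatase), Wdpcp/Mdh1 (a ciliary protein beside cytosolic malate dehydrogenase), Tmem167/Xrcc4 (Xrcc4 acts in DNA end joining) and Mis12/Derl2 (a kinetochore protein beside a factor of protein degradation at the endoplasmic reticulum) followed, with list percentiles between 99.2 and 99.7. Among the lowest were 9030418K01Rik/Ppp1r3d, Tmem194/Nab2, Gps1/Rfng and Rhobtb1/A930033H14Rik, with list percentiles from 0.521 to 8.81. At Gps1/Rfng, a subunit of the COP9 signalosome beside a glycosyltransferase that modifies Notch, the peak stood at percentile 4.36 of the WT list and 5.94 of that of Spen KO clone 3.

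Members were found in the other list more often than 1-strand peaks. Of the WT members 780 of 933 overlapped a Spen KO clone 3 peak by at least 1 bp (83.6%, interval 81.1 to 85.8), against 78.8% (77.9 to 79.6) of 1-strand peaks, a difference of 4.82 points (2.16 to 7.23). Of the Spen KO clone 3 members 780 of 849 overlapped a WT peak (91.9%, 89.8 to 93.5), against 86.5% (85.7 to 87.2), a difference of 5.42 points (3.25 to 7.26). The overlapping peak was itself a member for 774 of these 780 in WT and for 778 in Spen KO clone 3. The 153 members listed only in WT were 16.4% of the WT members, beside 26.0% of all autosomal WT peaks, and the 69 listed only in Spen KO clone 3 were 8.13%, beside 28.4%. Shared members ranked higher than list-only ones, at a median percentile of 76.1 against 24.7 in WT and 69.4 against 12.6 in Spen KO clone 3.

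The shared share rose with score in both classes. Within the bottom score quartile of WT, 34 of 112 members were shared (30.4%, interval 22.6 to 39.4) beside 39.4% of 1-strand peaks, and in that of Spen KO clone 3 72 of 124 (58.1%, 49.3 to 66.4) beside 52.3%. In the top quartile the shares were 99.8% and 100% beside 99.6% and 99.96%. The interval of the difference held 0 in each of the 4 quartiles of both lists. With 1-strand peaks weighted to the score deciles of members, the difference fell from 4.82 to -0.150 points in WT and from 5.42 to 1.70 points in Spen KO clone 3.

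**Figure D2:**
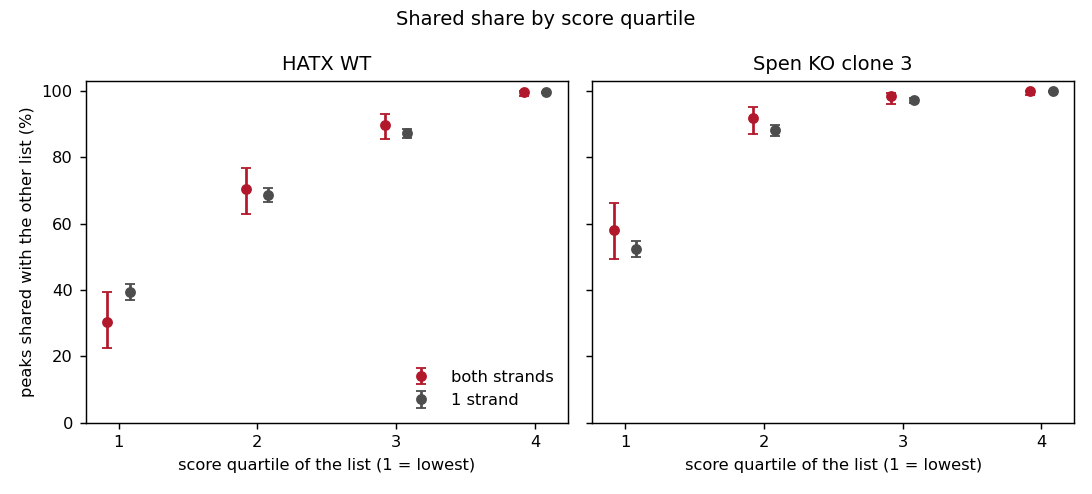
Percent of bidirectional (red) and 1-strand (grey) coding promoter peaks that overlap a peak of the other list, by score quartile of their own list, with 95% Wilson intervals. Both classes rise together from the first quartile (30.4% against 39.4% in WT, 58.1% against 52.3% in Spen KO clone 3) to nearly all peaks in the fourth.

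Among members listed only in WT, the highest-ranking was at Ikbip/Apaf1 (chr10:90545090-90546054), where Apaf1 encodes the core of the apoptosome, with replicate percentiles of 79.3 and 78.1. D6Wsu163e/Rad51ap1 (a recombination factor) followed at a list percentile of 73.1, Myl4/Cdc27 (Cdc27 is a subunit of the anaphase-promoting complex) at 72.9, Trappc2l/Galns at 72.3 and 2210009G21Rik/Mkks at 68.7. The last was a side peak, and the pair had a shared member in both lists, at a percentile of 91.5 in WT and 89.5 in Spen KO clone 3. The replicates stood apart at 2 of these, with percentiles of 52.9 and 83.5 at Trappc2l/Galns and of 83.3 and 36.7 at 2210009G21Rik/Mkks. Listed only in Spen KO clone 3 were Ypel3/Gm9967 (chr7:133920203-133920677) at 62.9, Sez6l2/Asphd1 at 55.1, Cpsf3/Itgb1bp1 (Cpsf3 cuts pre-mRNA before polyadenylation) at 51.2, Gnpat/2810004N23Rik at 49.3 and Siae/Spa17 at 45.9. The Sez6l2/Asphd1 peak lay between TSSs 981 bp apart and covered neither. List-only members were narrower than shared ones, with median widths of 559 against 736 bp in WT and 479 against 679 bp in Spen KO clone 3.

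Most members that could be followed between the lists ranked slightly lower in Spen KO clone 3. For 767 members with a single partner that was also a member, the percentile in Spen KO clone 3 minus that in WT had a median of -3.59 points (interval -4.55 to -2.42) and ranged from -60.9 to 45.9, with 511 below 0 (66.6%, beside 62.5% of 1-strand pairs and 50.5% of all pairs). It was -1.97 points with the first replicate of each list alone, -4.42 with the second alone and -5.58 with an IDR up to 0.01. The median was -2.74 (-3.07 to -2.36) over 6374 1-strand peaks and -0.0772 over all 15935 autosomal pairs of peaks. Percentiles are relative to a list, and both kinds of promoter peaks stood below the median over all pairs. The 8761 pairs of peaks with no coding TSS within 1 kb had a median of 3.00 points (2.58 to 3.36). A member was called lower or higher where both replicates of one list lay below or above both of the other. By this rule 249 members were lower in Spen KO clone 3 (32.5%, 29.2 to 35.9), beside 22.9% of all pairs and 28.9% of 1-strand pairs, 75 were higher (9.78%, 7.87 to 12.1), beside 22.9% and 13.8%, and 443 overlapped. The intervals of the 2 promoter medians overlapped, and their difference was 0.175 points with the first replicate of each list alone and -1.64 with the second alone. Members with a mean percentile from 25 to 50 had the lowest median shift, -12.0 points (-15.3 to -8.26; n = 138), and those above 75 -1.23 (-1.77 to -0.737; n = 359), beside -8.22 and -0.957 at 1-strand peaks, with overlapping intervals. On chromosome 1 between 100 and 130 Mb, where 33 1-strand peaks had a median shift of 15.7 points, only 2 members lay, at -0.878 and 12.3.

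**Figure D3:**
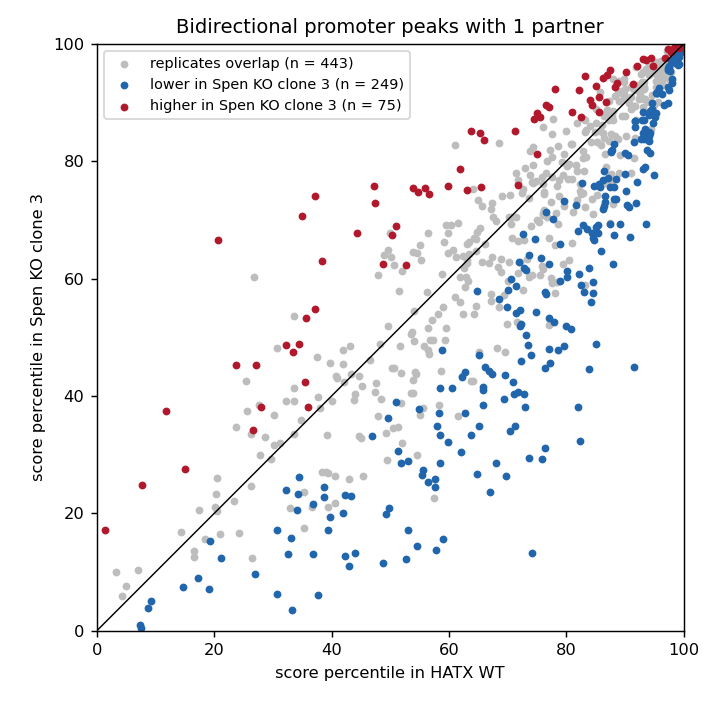
Score percentile of 767 bidirectional promoter peaks in HATX WT (horizontal) and Spen KO clone 3 (vertical), with the line of equal percentiles. Blue points (249) had both Spen KO clone 3 replicates below both WT replicates, red points (75) above, and grey points (443) overlapped, so that more points lie below the line (511, or 66.6%, beside 62.5% of 1-strand pairs) than above it.

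A list of 12 textbook pairs was looked up whatever their values, and 9 of them had members in both lists. At Hspe1/Hspd1, the 2 subunits of the mitochondrial chaperonin, the replicate percentiles were 44.3 and 28.0 in WT and 64.8 and 74.2 in Spen KO clone 3, so the groups did not overlap and the list percentile rose by 35.7 points. The WT peak was chr1:55144361-55145390 and that of Spen KO clone 3 chr1:55144601-55145402. Psmd13/Sirt3, a proteasome subunit beside a mitochondrial deacetylase, was higher by 6.85 points, at 34.3 and 41.0 against 44.6 and 43.5. Npat/Atm (WT peak chr9:53344661-53345566), a coactivator of histone genes beside the DNA damage kinase, was lower by the same rule, at 94.4 and 90.8 in WT and 86.4 and 86.8 in Spen KO clone 3.

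The replicates of the 2 lists overlapped at other looked-up pairs. Nbr1/Brca1, an autophagy receptor beside the recombination gene, was at 84.5 and 63.5 against 74.3 and 86.1. Prkdc/Mcm4, the catalytic subunit of DNA-dependent protein kinase beside a replicative helicase subunit, was at 79.7 and 65.1 against 83.0 and 72.7. Paics/Ppat, both enzymes of purine synthesis, was at 64.9 and 71.2 against 37.4 and 78.5, and the peaks of Son/Gart overlapped likewise. Surf1/Surf2, Col4a1/Col4a2 and Trp53/Wrap53 are annotated as opposite-strand pairs, with starts 21, -21 and 104 bp apart (a negative value is an overlap), and had no member in either list.

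The largest differences were chosen by their size, and are given as values only. The members that stood lowest in Spen KO clone 3 relative to WT included AI597468/Fhl4 (WT peak chr10:84564961-84565802), with replicate percentiles of 76.3 and 70.1 in WT and 13.4 and 15.4 in Spen KO clone 3, and Tmem175/Gak, a lysosomal channel beside a kinase of clathrin uncoating, with 83.0 and 80.6 against 19.7 and 49.6. Golga2/Swi5 (a Golgi matrix protein beside a recombination factor) differed by -46.6 points, Sf3a1/Ccdc157 (a splicing factor subunit) by -46.5 and Arhgap1/Zfp408 by -45.2. Those that stood highest were Foxj3/AA415398 (WT peak chr4:119211640-119212892; a forkhead factor), at 32.9 and 14.1 in WT and 55.4 and 74.0 in Spen KO clone 3, Atl1/Map4k5 by 36.9 points, Hspe1/Hspd1, Ilk/Rrp8 (integrin-linked kinase beside an rRNA-modifying enzyme) by 28.5 and Lrriq4/Lrrc34 by 25.8. The Lrriq4/Lrrc34 peak was a side peak over neither TSS, and the member of that pair over both TSSs stood at 78.7 in WT and 76.9 in Spen KO clone 3. At some of these members the replicates of 1 list were themselves far apart, as at Tmem175/Gak in Spen KO clone 3.

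**Figure D4:**
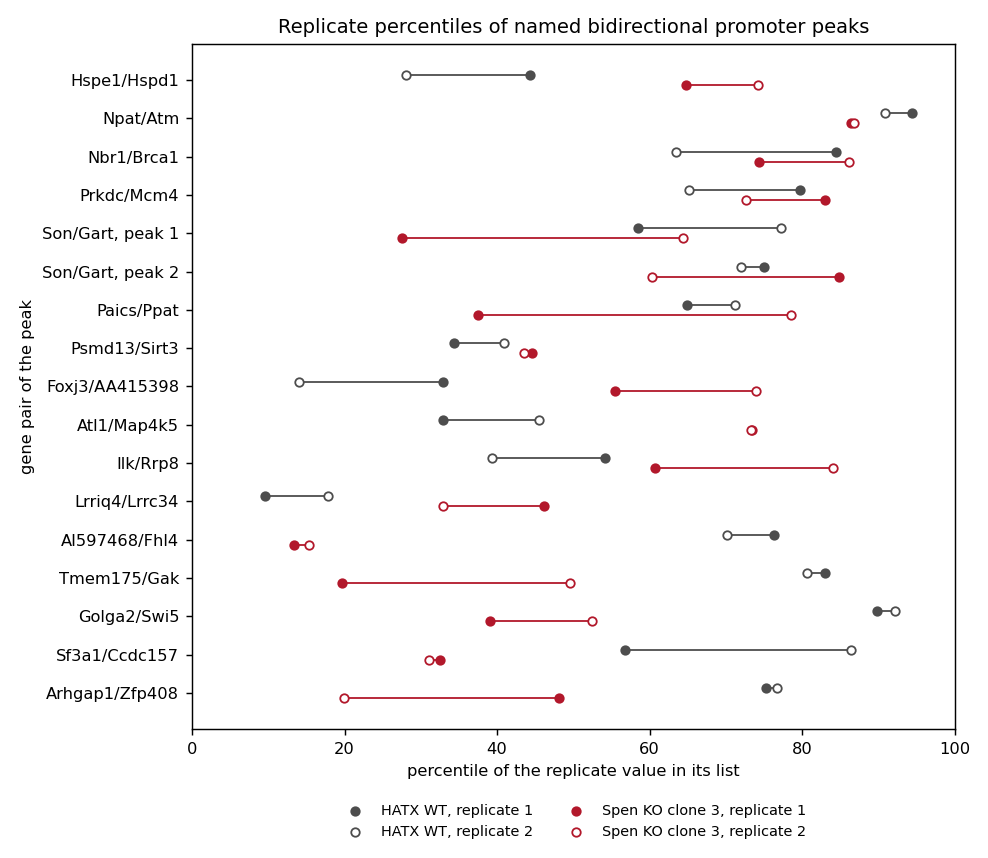
Percentile of each replicate value in its list (filled, replicate 1; open, replicate 2) for HATX WT (grey) and Spen KO clone 3 (red) at looked-up pairs with a member and at the pairs with the largest differences, 1 row per peak and plus-strand gene first. Grey and red do not meet at Hspe1/Hspd1, Npat/Atm and Psmd13/Sirt3 or at the 9 rows from Foxj3/AA415398 down, and they overlap at the other looked-up pairs shown.

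Several housekeeping groups held more opposite-strand pairs than coding genes as a whole. Of all 21410 autosomal coding genes 2459 were in such a pair (11.5%), and of these 73.2% had the pair's peak in WT and 66.4% in Spen KO clone 3. Histone genes had 28 of 67 in a pair (41.8%), with a pair peak for 25 in WT and 21 in Spen KO clone 3. These lie in clusters of near-identical copies, and only uniquely mapping reads were kept. Of 45 DNA repair genes 18 were in a pair, and 14 had a pair peak in both lists, among them Brca1, Pms2, Atm, Prkdc, Xrcc4, Xrcc6, Lig1, Palb2 and Wrn. The recombination gene Rad51c had one in Spen KO clone 3 only, and Fen1, Fancd2 and Lig4 in neither. Of 21 Mcm, Orc, Cdc6, Cdc45 and Gins genes, most of which act in the loading and firing of replication origins, 8 were in a pair (38.1%), and all 8 (Mcm4, Mcm7, Mcm8, Orc1, Orc3, Orc4, Orc6 and Cdc45) had a pair peak in both lists.

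Genes of translation and of the mitochondrion followed. Mitochondrial ribosomal proteins had 27 of 77 in a pair (35.1%), with a pair peak for 19 in WT and 17 in Spen KO clone 3, whereas cytosolic ribosomal proteins had 13 of 79 (16.5%), with a pair peak for 4 and 5. Rps27a, Rpl15 and Rpl9 had one in both lists and 7 of the 13, such as Rps2, Rps18 and Rpl12, in neither. All 11 paired aminoacyl-tRNA synthetases had a pair peak in WT and 7 of them in Spen KO clone 3, where Vars, Hars, Hars2 and Kars had none. Hars and Hars2 lie head to head. Complex I had 13 of 41 in a pair, with 11 and 8 pair peaks, and nuclear RNA polymerase subunits 10 of 27, with 9 and 7. Proteasome genes had 10 of 51 in a pair, with 8 and 6 pair peaks. Chaperones had 19 of 70, with 18 and 17. At the other end, zinc finger genes had 27 of 362 in a pair (7.46%) and Hox genes 1 of 40, Hoxc13. The annotation gives Psmb9, Hspa14 and Zfp664 under 2 gene identifiers each, so each is counted as 2 genes in these numbers.

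In sequence, members differed from 1-strand promoter peaks in CpG and in CCAAT and Ets motifs. Features were read in the 300 bp around the midpoint, on both strands. GC content was slightly lower at members, with a median of 64.3% in both lists against 66.0% in WT and 65.7% in Spen KO clone 3 at 1-strand peaks. The ratio of observed to expected CpG was higher, at 0.849 against 0.799 in WT and 0.841 against 0.786 in Spen KO clone 3. In the same window around all gene starts the ratio was 0.831 for genes in a pair and 0.543 for the others. The Ets motif CCGGAAG stood in 29.5% of WT members against 16.8% of 1-strand peaks, a difference of 12.7 points (9.75 to 15.8), and in 28.9% against 16.1% in Spen KO clone 3, 12.8 points (9.73 to 16.0). The CCAAT box, bound by NF-Y, stood in 45.2% against 38.0% in WT, 7.26 points (3.92 to 10.6), and in 46.6% against 39.1% in Spen KO clone 3, 7.58 points (4.07 to 11.1). Around autosomal coding gene starts CCGGAAG stood in 23.8% of those in a pair and 9.80% of the others, and CCAAT in 36.3% and 35.3%, with all starts at 11.4% and 35.4%. The window was centred a median of 95 bp upstream of a TSS at divergent WT members and 15.5 bp upstream at 1-strand peaks, and the part of this in the CCAAT difference was not tested.

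The YY1 motif AAGATGGC stood in 6.11% of WT members and 6.24% of Spen KO clone 3 members. It was more frequent than at 1-strand peaks by 2.10 points (0.661 to 3.87) and 2.65 points (1.15 to 4.53). Over all autosomal peaks the motif stood in 5.23% in WT and 8.15% in Spen KO clone 3. For GGGCGG (Sp1 and Klf), GCGCATGC (Nrf1), TGACGTCA (Creb), TATAAA (the TATA box), CACGTG (the E-box) and TTCCCGCC (E2F), the interval of the difference held 0 in both lists. TATAAA stood in 2.04% of WT members and 2.47% of Spen KO clone 3 members, beside 2.89% and 2.84% of 1-strand peaks. GGGCGG stood in 73.8% and 73.1% of members, beside 72.6% and 71.8% of 1-strand peaks. Around all gene starts the shares were 10.8% for TATAAA and 46.1% for GGGCGG. The Ets and YY1 letters share AAG and the GC box and E2F letters share GGCGG, so 1 stretch can hold both. A match is a description of the letters and not a bound site.

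**Figure D5:**
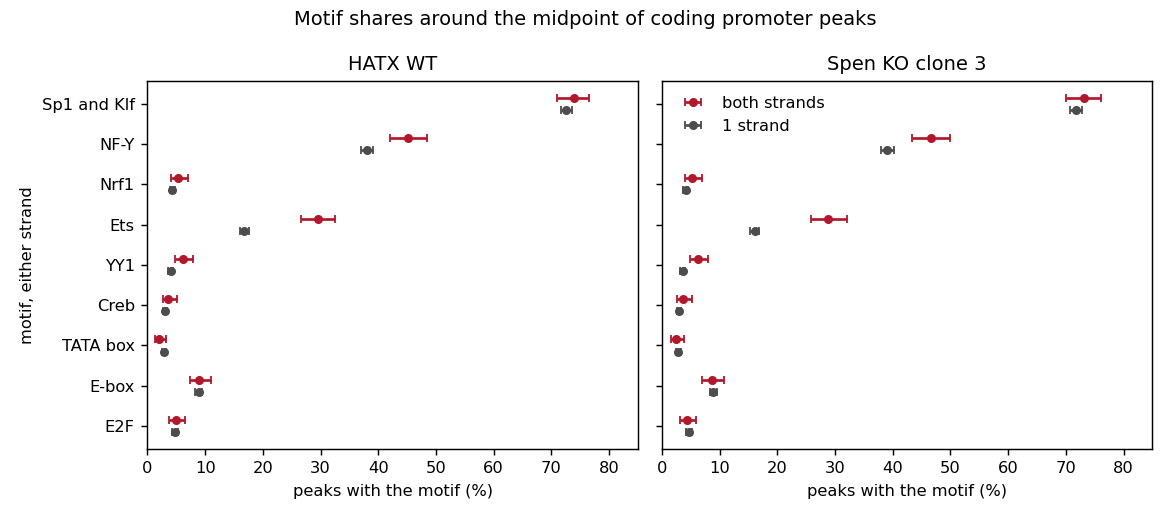
Percent of bidirectional (red) and 1-strand (grey) coding promoter peaks that hold each of 9 motifs on either strand within 300 bp around the midpoint, with 95% Wilson intervals, for each list. Ets (29.5% against 16.8% in WT) and NF-Y (45.2% against 38.0%) stand apart, with YY1 less so, and the other motifs lie close together.

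The CCAAT and Ets motifs were spread differently over the distance between the TSSs. CCAAT stood in 34.7% of WT members with divergent TSSs 1 to 100 bp apart (interval 28.7 to 41.4), in 53.6% at over 100 to 300 bp (48.4 to 58.8) and in 53.8% at over 300 bp, and in 30.2%, 57.0% and 55.4% in Spen KO clone 3. The Ets motif went the other way, from 39.9% (33.6 to 46.6) to 30.1% and 18.6% (13.9 to 24.4) in WT and from 41.2% to 28.8% and 17.1% in Spen KO clone 3. The window had the same length for every pair, so at closer pairs more of it was transcribed sequence. Members with CCAAT ranked higher, at a median percentile of 80.0 (interval 77.1 to 83.5; n = 422) against 58.5 (54.9 to 62.7; n = 511) in WT and 76.3 against 53.3 in Spen KO clone 3. The same contrast stood at 1-strand peaks, with 73.4 against 52.5 in WT and 69.6 against 49.8 in Spen KO clone 3. Members with the Ets motif had a median of 71.4 in WT against 70.1 without it, with overlapping intervals, whereas 1-strand peaks had 65.8 (63.7 to 67.7) against 58.9 (57.9 to 60.2). In Spen KO clone 3 the medians were 66.0 against 66.8 at members and 62.9 against 56.1 at 1-strand peaks. The shift between the lists had a median of -2.71 points with CCAAT and -4.14 without, and -4.10 with the Ets motif and -2.95 without, again with overlapping intervals.

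The 1 kb limit cut through a thin zone. Members whose farther TSS lay 900 to 1000 bp from the midpoint numbered 19 in each list, with median widths of 526 bp in WT and 507 bp in Spen KO clone 3 and median percentiles of 42.2 and 37.5. Just outside, at up to 1100 bp, lay 20 and 23 peaks, with median widths of 504.5 and 499 bp and median percentiles of 49.3 and 45.1.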

How the data were processed

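The authors trimmed reads with cutadapt, aligned them to mm9 with Bowtie2, kept uniquely mapped, properly paired reads without duplicates, and called peaks per technical replicate with MACS2. Peaks were deposited per line after a filter on reproducibility between replicates (IDR, at most 0.05), with a length, a value for each of 2 replicates and the IDR. The scale of these values is not named and read depth is unknown. Because only unique reads were kept, promoters of near-identical gene copies can be under-called.

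Coordinates were read as 1-based. TSSs were those of coding transcripts of coding genes (GENCODE vM1 and the NCBIM37 sequence, the same build as mm9). The pair of a member is the TSSs of 2 genes nearest to its midpoint. Percentiles were taken over the autosomal peaks of a list, for the mean and for each replicate. Python 3.11.15, pandas 2.3.3, scipy 1.17.1 and matplotlib 3.10.9 were used, and the classification, overlap, interval and call steps were tested on simulated data. With 1 list per line, no test was made. The members and lists were chosen with earlier results of these data known. Named pairs were a fixed list of 12, the 5 highest and lowest by mean percentile, the 5 largest called shifts each way, the 5 highest list-only members per list and the 3 widest per list. Sequences were the stretches of 40 to 300 bp between divergent TSSs of these pairs that hold no annotated exon. Values of a few named pairs are not reported here.

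Alternatives were TSS limits of 500 bp and 2 kb, 1 TSS per gene, divergent pairs only, an overlap of at least 50% of each peak, lists of equal length, scores at or above the list median, an IDR up to 0.01 and each replicate alone. Weighting to score, width or CpG deciles of members was chosen after seeing the data.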

Additional observations from a re-analysis of the deposited data

Results flagged for a closer look

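In the bottom score quartile the difference in shared share between bidirectional and 1-strand promoter peaks had opposite signs in the lists. It was -9.07 points in WT (interval -17.2 to 0.308) and 5.75 points in Spen KO clone 3 (-3.38 to 14.4). Both intervals held 0 and the difference between the lists was not tested.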

How the results depend on the processing

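No paired analysis was possible because each line has 1 list with its replicates combined and no result comes from a test. Of 106 values recomputed under 13 settings, 88 moved by less than their interval (for counts, less than 1.5 times), 16 moved further and 2 changed sign. Keeping scores at or above the list median narrowed the percentile difference between bidirectional and 1-strand peaks to 6.50 points in WT and 3.67 in Spen KO clone 3, and the shared difference to 1.81 and 0.717 points. It left 550 Spen KO clone 3 members and a peak at 52.3% of gene pairs in WT and 43.8% in Spen KO clone 3. With an IDR up to 0.01, the share of pairs was 61.7% and 49.4%, the percentile difference 4.67 points in Spen KO clone 3, the median shift of members -5.58 points, and 47 members were higher in Spen KO clone 3. Both settings keep fewer peaks. With 1 replicate at a time, the median shift of members ran from -4.42 to -1.97 points and its difference from 1-strand peaks from -1.64 to 0.175. Weighted to the score deciles of members, the shared difference was -0.150 points in WT and 1.70 in Spen KO clone 3. Weighted to width deciles, the percentile difference was 6.13 and 4.52 points. The unknown depth limits what absence from a list can show.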

Other observations

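On the X chromosome, which the member rule left out, the same criteria found 23 bidirectional promoter peaks in WT and 25 in Spen KO clone 3, with median widths of 809 and 762 bp beside 715 and 675 bp at 359 and 363 peaks of 1 strand. Of the WT peaks 23 of 23 overlapped a Spen KO clone 3 peak (100%, 95% Wilson interval 85.7 to 100), beside 88.3% of 1-strand peaks, and 23 of the 25 in Spen KO clone 3 overlapped a WT peak (92.0%, 75.0 to 97.8), beside 87.3%. The doxycycline state behind the lists is not stated, so these values are not tied to Xist.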
